A study of Mus musculus with 6 samples.

Results

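The kinesin genes of the mouse oocyte were taken as every gene symbol of the count table that starts with Kif followed by a number and at most 1 letter, or with Kifc followed by a number. This gave 43 of 55291 genes, one of which, Kifc5c-ps, is a pseudogene by its symbol. Kinesins are motor proteins that use ATP to walk along microtubules or to take microtubule ends apart. In a dividing cell they build the bipolar spindle, align chromosomes and form the midzone on which the cell is cut, and in the resting cell they carry organelles and vesicles. A full-grown oocyte is arrested before its first meiotic division, so it stores the mRNAs of the spindle and cytokinesis motors it will need when it matures.

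The libraries came from full-grown mouse oocytes of wild-type (WT) and Pan2 knockout (KO) genotype. PAN2 is the catalytic subunit of a deadenylase that shortens poly(A) tails, and the comparison asks how the oocyte's stored transcripts differ without it. The labels give tissue and genotype only. The series text speaks of a maternal deletion and of zygotes and 2-cell embryos, whereas the sample titles name full-grown oocytes, which were followed here. The sources used here give no strain, age or deleting allele, nor whether a library holds oocytes of 1 female or of several. The labels name 6 samples. WT 1 was compared with KO 1, KO 2 and KO 3, whose values follow in that order throughout, and the WT sample numbered 3 was not analysed here.

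The 4 compared libraries held from 12038990 (KO 1) to 26770521 (KO 3) counts. WT 2 stood apart. Its counts did not follow the gene models, with a correlation of log2 CPM across genes of 0.114 to 0.128 with the other libraries, which correlated with one another at 0.939 to 0.989. It had 0 counts at 14 of the kinesin genes. It was left out of the comparison, and the values with it are given at the end. With 1 WT library, the test takes the spread from the KO libraries alone and assumes that WT 1 varies like them. KO 2 and KO 3 were the closest pair, and KO 1, the shallowest, stood away from both. Pan2 itself was at 77.6 normalized CPM (the gene's count relative to its library's total, with totals scaled by TMM factors) in WT 1 and at 44.6, 11.9 and 34 in the KO libraries (log2 fold change KO minus WT -1.37, SE 0.53, edgeR adjusted p = 0.301), so its difference did not pass. The KO libraries thus all lay below WT 1 but still held Pan2 reads; the counts cover the whole gene, and which part is deleted is not stated.

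The labelled cell type was checked by its markers. The 8 oocyte markers together took 2.30% of counts in WT 1 and 1.98% to 2.27% in the KO libraries. The 12 granulosa and cumulus markers took 0.0065% in WT 1 and 0.00843% to 0.0096% in the KO libraries. Of these, Foxl2, Amh and Fshr were at 0 to 1.12 normalized CPM. The aromatase gene Cyp19a1 was at 13.9 normalized CPM in WT 1 and 35.1 to 46.1 in the KO libraries. Nr5a2 was the highest of the list in WT 1, at 43.3 CPM (over the library total), and at 36.8 to 48.2 CPM in the KO libraries. On the same scale Kitl was at 5.58 CPM in WT 1 and 5.91 to 9.67 CPM in the KO libraries. The 7 blood markers took 0.000141% in WT 1 and 0.000153% to 0.000492% in the KO libraries, with all 4 haemoglobin genes at 0 counts. The 7 stromal and endothelial markers took 0.00161% in WT 1 and 0.00278% to 0.00288% in the KO libraries. Col1a2, Col3a1 and Cdh5 were at 0, whereas Pecam1, an adhesion gene of endothelium, was at 14.9 CPM (over the library total) in WT 1 and 24.6 to 26.2 CPM in the KO libraries, and Kdr at 0.809 and 1.42 to 3.24 CPM. The part of these cell types in the results was not tested. In bulk RNA, fewer cells of a type and less RNA per cell cannot be told apart.

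Promoters are shown for Kif22, Kif23 and Kif4, the 3 kinesins of highest level whose windows hold both sets of letters described here, because these letters differed in frequency between kinesin roles. Each runs from 250 bases before to 50 bases after the annotated start, 5′ to 3′ on the gene's strand, from RefSeq on GRCm38.p6. Capitals mark CCAAT, the letters bound by NF-Y, and TTTGAA or TTCGAA, the core of the cell-cycle genes homology region at which the DREAM complex holds cell-cycle genes silent in resting somatic cells. Both strands were searched, so that ATTGG and TTCAAA are the same letters read from the other strand. The RefSeq window of Kif17, the kinesin with the highest level, is shown for contrast and holds neither. It lies well inside the GENCODE gene, which starts at 138250435, so the sequence at that start was not searched.
Kif22 promoter, chr7:127042371-127042670, minus strand: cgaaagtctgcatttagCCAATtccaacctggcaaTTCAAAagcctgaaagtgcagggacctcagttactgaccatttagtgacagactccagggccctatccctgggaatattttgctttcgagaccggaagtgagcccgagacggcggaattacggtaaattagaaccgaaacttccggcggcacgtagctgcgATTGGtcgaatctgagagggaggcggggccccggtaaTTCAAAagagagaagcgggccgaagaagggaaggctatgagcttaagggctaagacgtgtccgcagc
Kif23 promoter, chr9:61946750-61947049, minus strand: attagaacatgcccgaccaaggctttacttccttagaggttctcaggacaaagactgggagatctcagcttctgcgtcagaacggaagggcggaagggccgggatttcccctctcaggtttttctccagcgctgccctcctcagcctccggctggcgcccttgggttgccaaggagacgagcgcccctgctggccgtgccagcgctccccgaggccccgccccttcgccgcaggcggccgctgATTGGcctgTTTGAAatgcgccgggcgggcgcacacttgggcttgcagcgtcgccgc
Kif4 promoter, chrX:100625815-100626114, plus strand: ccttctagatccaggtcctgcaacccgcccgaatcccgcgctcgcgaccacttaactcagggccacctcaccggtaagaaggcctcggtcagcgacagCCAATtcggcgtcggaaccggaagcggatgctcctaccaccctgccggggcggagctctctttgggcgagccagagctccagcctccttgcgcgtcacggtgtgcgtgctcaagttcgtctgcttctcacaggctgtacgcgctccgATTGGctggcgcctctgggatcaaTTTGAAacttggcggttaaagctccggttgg
Kif17 promoter, chr4:138262001-138262300, plus strand: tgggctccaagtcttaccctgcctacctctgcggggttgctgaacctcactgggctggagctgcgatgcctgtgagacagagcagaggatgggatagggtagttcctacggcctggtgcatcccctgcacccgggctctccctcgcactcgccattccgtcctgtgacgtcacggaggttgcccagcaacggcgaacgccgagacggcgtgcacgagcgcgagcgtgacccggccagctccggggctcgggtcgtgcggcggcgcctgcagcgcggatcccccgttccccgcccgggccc

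The homology-region letters stood in 8 of 10 promoters of spindle kinesins and in 3 of 3 of cytokinesis kinesins. Among the 8 were Kifc1 and its close copy Kifc5b, whose windows share long stretches of sequence, so they are not separate cases. They stood in 0 of 7 promoters of transport kinesins and in 2 of 6 of cilium kinesins. Over all genes tested with a promoter, 15.3% of 11996 held them. CCAAT stood in 14 of the 28 promoters of tested kinesins and in 39.1% of all. Both together stood in 11 of the 28, against 6.53% of all. The genes with both were Kif14, Kif22, Kif23, Kif24, Kif26b, Kif27, Kif4, Kif11, Kif18b, Kifc1 and Kifc5b. Promoters matched for 33 of the 43 kinesin genes by symbol. The windows of Kif14, Kif2c and Kif27, which hold the homology-region letters, lie well inside the GENCODE gene and away from its start, as does that of Kif17. The window of Kif4 begins at 100625815, also inside the GENCODE gene, which starts nearby at 100625737. The letters are a description of these windows and say nothing of whether a factor is bound there in oocytes.

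**Figure D1:**
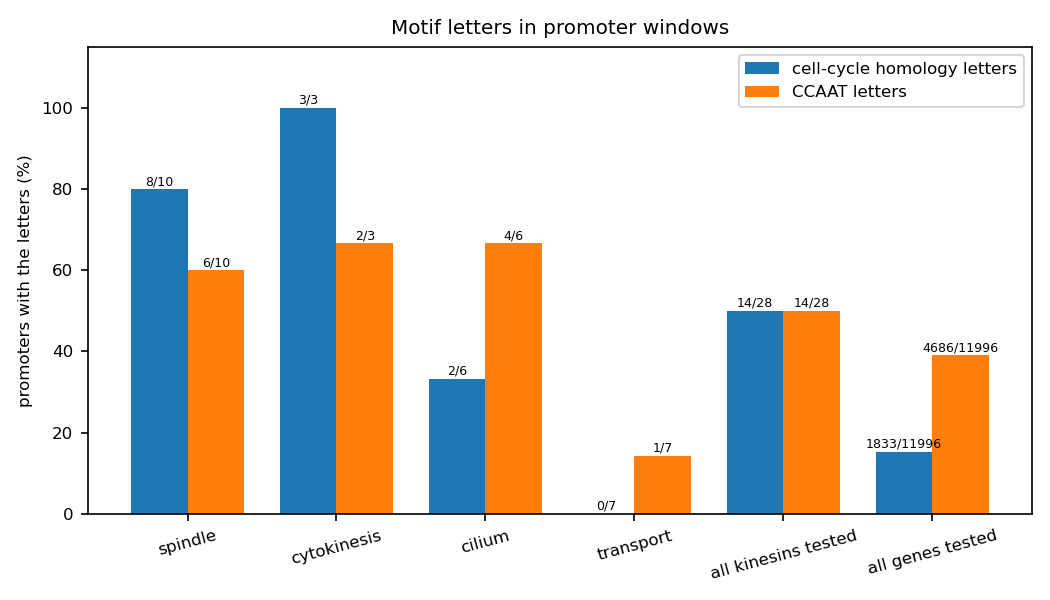
Share of promoter windows (percent, vertical axis) that hold the cell-cycle homology letters (blue) or CCAAT (orange), for kinesin role groups, all kinesins tested and all genes tested; fractions give promoters with the letters over promoters searched. The homology letters are in 8 of 10 spindle promoters and 0 of 7 transport promoters.

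The ends of the transcripts are shown next because letters close to the poly(A) signal take part in setting tail length in oocytes. The cytoplasmic polyadenylation element recruits CPEB proteins, which keep tails short in the resting oocyte and lengthen them during maturation. It was searched as TTTTAT or TTTTAAT in the last 100 bases of the transcript, on the transcript strand, and the poly(A) signal as AATAAA or ATTAAA. The element was found in 8 of the 33 tested kinesin transcripts whose 3′ UTR fills that window (24.2%) and in 19.2% of 12615 transcripts of all genes tested. A signal was found in 28 of the 33, against 79.9% of all. Among the kinesins searched, Kif18a, Kif20b and Kif26a held an element within the 30 bases that end with the signal. They are printed with Kif23 and Kifc3, whose windows hold a signal alone; capitals mark element and signal, from GENCODE M21 transcripts on mm10, 5′ to 3′.
Kif18a transcript end, chr2:109341707-109341736, plus strand: aataTTTTATtacttggtatATTAAAgatg
Kif20b transcript end, chr19:34975701-34975730, plus strand: tatataaTTTTAATtcAATAAAtatatcag
Kif26a transcript end, chr12:112181707-112181736, plus strand: ggctgtTTTTATttgtgAATAAAagatgtg
Kif23 transcript end, chr9:61917285-61917314, minus strand: caaaacaactgaAATAAAaaggcactaaga
Kifc3 transcript end, chr8:95099836-95099865, minus strand: ccatttttacttATTAAAatgaatgtcttt

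The other kinesin transcripts with an element were Kif11, Kif26b, Kif27, Kifc1 and Kifc5b. The 3′ UTR of Kif22, of 62 bases, was too short for the count; it held an element and no signal. The 8 transcripts with the element had a median log2 fold change (KO minus WT) of 0.37, with 6 above 0, and the 25 without it -0.10, with 11 above 0. The same medians over all genes tested were 0.07 and 0.02. The part of the element in these differences was not tested. The median 3′ UTR was 738 bases for the kinesins and 994 for all genes tested.

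A few kinesins made up most of the family's mRNA. Levels of different genes are compared here per length, as TPM (counts per base of exon, scaled to the same sum in each library). By the mean over the 4 libraries, 5 genes reached 50 TPM and held 72.7% of the family's total, and 30 reached 1 TPM. Kif17 had the highest mean TPM, 218, followed by Kif22 at 203, Kif23 at 155, Kif2c at 99.9 and Kif4 at 96. The levels in single libraries ran from 176 to 252 TPM for Kif17 and from 145 to 266 TPM for Kif22, and Kif17 was the higher of the pair in 2 of 4 libraries, so these neighbours were not separated. Kif23 (103 to 183 TPM) lay below both in 4 of 4 libraries. Kif2c (79.6 to 120 TPM) and Kif4 (85.7 to 104 TPM) lay below Kif23 in 4 of 4 libraries, and each was the higher of that pair in 2. With the longest annotated transcript as the length in place of all exons, Kif23 came first at 361 TPM, ahead of Kif17 at 289 and Kif22 at 277, so the order of the leading 3 rests on the length used. Below a wide gap came Kif3a at 38.8 TPM, Kif20b at 34.8, Kif20a at 30.1, Kif14 at 28.8, Kif2a at 28.7 and Kif18a at 22.2, where each was above the next in 2 of 4 libraries.

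**Figure D2:**
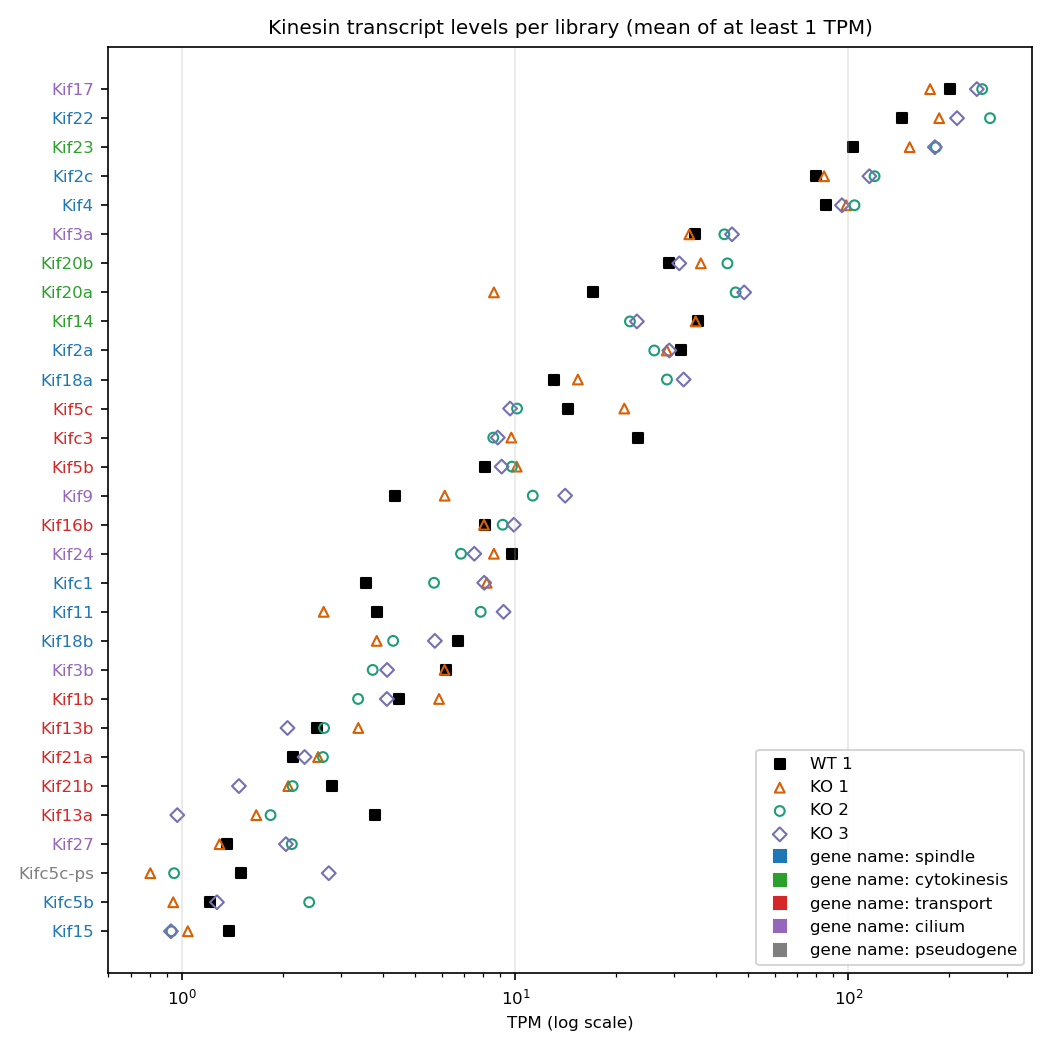
TPM per library (horizontal axis, log scale) of the 30 kinesin genes with a mean of at least 1 TPM, ordered by that mean; black squares are WT 1 and open symbols KO 1, KO 2 and KO 3, and name colours give the role. Kif17, Kif22 and Kif23 lead, and Kif20a spreads from 8.62 TPM in KO 1 to 48.6 TPM in KO 3.

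No kinesin gene passed the test between KO and WT oocytes. Of the 43 genes, 36 passed the filter on low counts and were tested; 0 rose and 0 fell at an edgeR adjusted p of 0.05. Of all 17799 genes tested, 1.93% were called, 1.32% higher and 0.612% lower in KO. An unadjusted p below 0.05 was reached by 4 kinesins, against 13.3% of all genes. The median log2 fold change was 0.09 for the kinesins and 0.02 for all genes, with 19 of 36 above 0. All KO libraries lay on one side of WT 1 for 22 kinesins, 10 above and 12 below; the share among all genes was 58.3%, with 29.1% above and 29.2% below. DESeq2 called 1 kinesin, Kifc3, where it called 3.78% of all genes. In simulated counts for this comparison of 1 library against 3, the test recovered 75% of 4-fold and 3% of 2-fold changes, so that 2-fold changes would mostly be missed. The changed genes all had a mean of at least 5 CPM, which 26 of the 36 tested kinesins reached. The shares do not cover the kinesins below it.

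**Figure D3:**
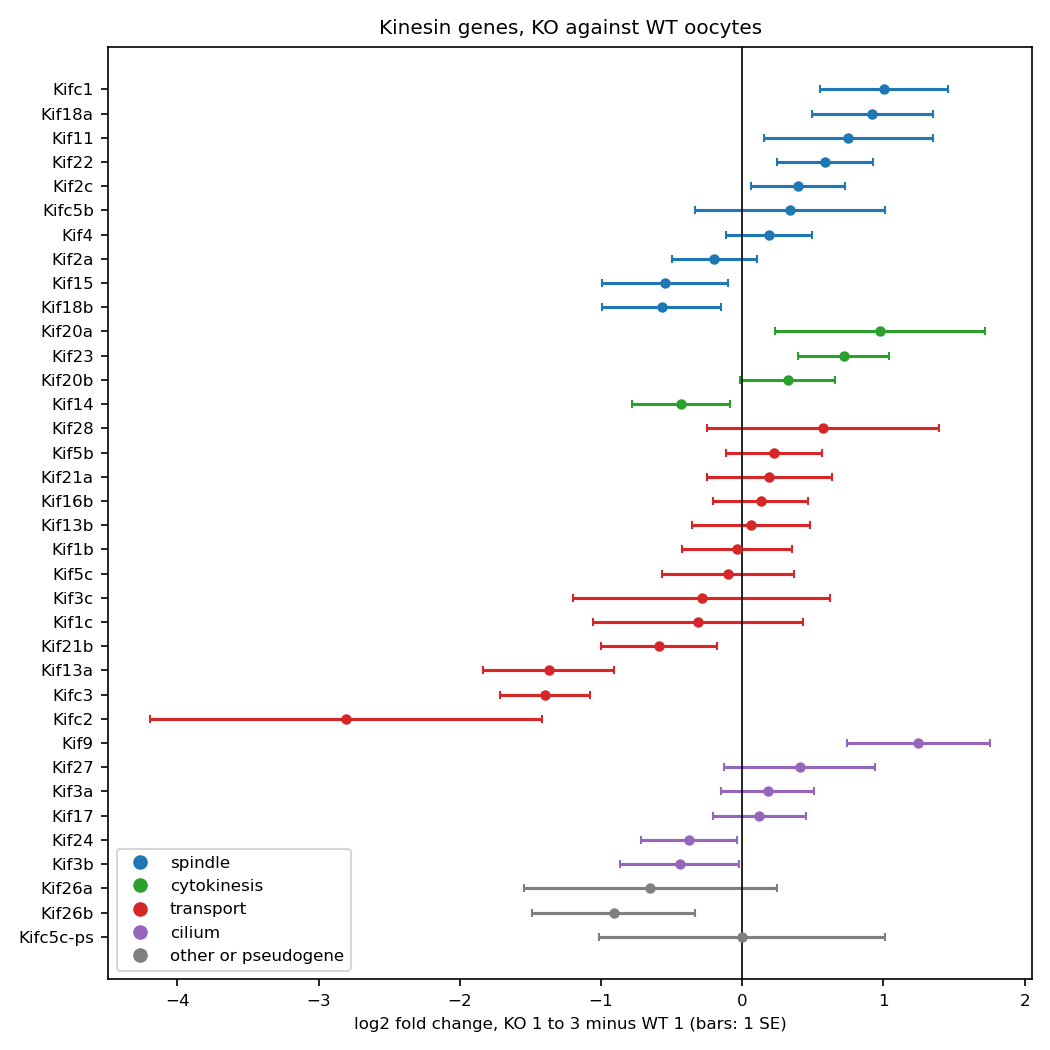
Log2 fold change of KO 1 to 3 minus WT 1 (horizontal axis) for the 36 kinesin genes tested, grouped and coloured by role; points are edgeR estimates and bars 1 SE. Kifc2, Kifc3 and Kif13a lie farthest to the left and Kif9 and Kifc1 farthest to the right, and none passed an adjusted p of 0.05. Kifc2 passed the filter on low counts through WT 1 alone.

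The spindle motors held the largest share of the family's mRNA. Their summed level was 372 TPM in WT 1 and 431, 566 and 509 TPM in the KO libraries. Of the 10 tested members 7 had a log2 fold change above 0, with a median of 0.37, and 0 passed. Kif22 (chromosome 7, 127027729 to 127042471, minus strand, in mm10), the chromokinesin Kid that pushes chromosome arms away from the poles, was at 286 normalized CPM in WT 1 and at 365, 525 and 397 CPM in the KO libraries. All KO libraries lay above WT 1, by 0.59 on the log2 scale (SE 0.34; adjusted p = 0.508 with edgeR). Kif4, a chromokinesin that also sets the length of midzone microtubules, was nearly flat, at 190 CPM in WT 1 and 216, 231 and 201 CPM in the KO libraries. Kif2c, the depolymerase MCAK that frees wrongly attached microtubules at centromeres, was at 139 CPM in WT 1 and 146, 210 and 193 CPM in the KO libraries, where KO 1 lay next to WT 1. Its relative Kif2a, a kinesin-13 of spindle poles, was at 80.4 CPM and at 72.4, 67.1 and 70.8 CPM, all below WT 1. The third kinesin-13 of the spindle, Kif2b, had 0 counts in all 4 libraries, which allows at most 0.112 to 0.249 CPM per library by 3 counts.

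Kif18a, a kinesin-8 that damps the movements of aligned chromosomes, was at 51.6 CPM in WT 1 and at 60.2, 113 and 120 CPM in the KO libraries, 0.92 higher on the log2 scale (SE 0.43, edgeR adjusted p = 0.39). KO 1 was again close to WT 1, with KO 2 and KO 3 near each other above them. Kif11, the motor Eg5 that pushes spindle poles apart, was at 11.5 CPM in WT 1 and 7.88, 23.6 and 26.3 CPM in the KO libraries, which lay on both sides of WT 1. Its level of 5.89 TPM on average was well below that of the chromokinesins. Kifc1, the minus-end motor HSET that gathers microtubules at poles, was at 4.89 CPM in WT 1 and 11.1, 7.82 and 10.5 CPM in the KO libraries, all above WT 1 (log2 fold change 1.00, SE 0.45, adjusted p = 0.378). Kifc5b, a close copy of Kifc1, was at 1.80 CPM in WT 1 and 1.38 to 3.57 CPM in the KO libraries. The copies share 17% of the 100-base stretches of Kifc1, so reads could be split between them. Kif15, which helps Kif11 to keep poles apart, was at 6.10 CPM in WT 1 and 3.89 to 4.55 CPM in the KO libraries. Kif18b, which shortens astral microtubules, was at 9.65 CPM and 5.44 to 7.82 CPM; both lay below WT 1 in all KO libraries.

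The cytokinesis motors were summed at 184 TPM in WT 1 and at 232, 294 and 285 TPM in the KO libraries. Of their 4 members 3 had a log2 fold change above 0, and 0 passed. Kif23 (chromosome 9, 61915905 to 61946774, minus strand), the centralspindlin motor MKLP1, was at 326 CPM in WT 1 and at 479, 582 and 548 CPM in the KO libraries. Every KO library lay above WT 1, with a mean of 536 ± 52.1 CPM (SD, n = 3) and a log2 difference of 0.72 (SE 0.32; adjusted p = 0.371 with edgeR). Kif20b, a motor of late cytokinesis, was at 80.9 CPM in WT 1 and 99.6, 121 and 82.5 CPM in the KO libraries. Kif14, which works at the midbody, had the opposite order, at 147 CPM in WT 1 and 143, 91.9 and 91.6 CPM in the KO libraries (log2 fold change -0.43, SE 0.35).

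Kif20a, the motor MKLP2 that carries the chromosomal passenger complex to the midzone, spread more widely within the KO group. It was at 29.8 CPM in WT 1 and at 14.9, 79.9 and 80.6 CPM in the KO libraries. The highest KO library was 5.42 times the lowest, against a median ratio of 1.56 over the tested kinesins and 1.64 over all genes. On the log2 scale the KO libraries were 0.97 above WT 1 (SE 0.74), and edgeR gave an adjusted p of 0.63. Cdc23, a subunit gene of the anaphase-promoting complex that overlaps 29.3% of the exon bases of Kif20a on the opposite strand, had the same order, 9.61 CPM in WT 1 and 5.12, 15.7 and 16.5 CPM in the KO libraries. The sources do not state if strand was used in counting. Without it, reads in the overlapping bases of Kif20a and Cdc23 cannot be told apart. Kif4 and Pdzd11 (15.1% of exon bases) and Kif2a and Dimt1 (19.2%) overlap in the same way. Kif3c overlaps 2 genes on the opposite strand, 1110002L01Rik and Gm48512, over as much as 43.3% of its exon bases.

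Transport kinesins, as grouped here, were low in the oocyte and the family member nearest to passing was among them. The summed level of the group was 72 TPM in WT 1 and 68, 51.9 and 49.9 TPM in the KO libraries, all below WT 1. Kif17, which also carries vesicles, was counted under cilium. At 202 TPM in WT 1 it alone was above this sum, so the low level of the group rests on that choice. Without Kifc3 the sum of the transport group was 48.6 TPM in WT 1 and 58.3, 43.3 and 41 TPM in the KO libraries, so that KO 1 lay above WT 1. Of 13 tested members 5 had a log2 fold change above 0, with a median of -0.10, and 0 passed. Kifc3 (chromosome 8, 95099828 to 95202812, minus strand), a minus-end motor known at cell junctions and at the Golgi, was at 49.7 CPM in WT 1 and at 20.5, 18.3 and 17.9 CPM in the KO libraries. The KO libraries lay close together at 18.9 ± 1.38 CPM (SD, n = 3), below WT 1. The log2 fold change was -1.40 (SE 0.32; adjusted p = 0.0586 with edgeR), and it passed with DESeq2 (adjusted p = 0.0112), when low-count genes were kept (0.0124, 3.07% of all genes called) and when KO 1 was left out (8.97e-09); over the alternatives without WT 2 the adjusted p ran up to 0.223. Exons of Kifc3 also overlap genes on the opposite strand, so without strand its reads in the overlapping bases cannot be told apart from theirs.

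Kif13a, which carries endosomal cargo, was at 12.5 CPM in WT 1 and at 5.44, 6.08 and 3.03 CPM in the KO libraries, all below WT 1 (log2 fold change -1.37, SE 0.47, edgeR adjusted p = 0.223). Its paralogue Kif13b was at 13.2 CPM in WT 1 and at 17.5, 13.9 and 10.3 CPM, on both sides. Kifc2 had 16 counts in WT 1 and 0, 2 and 4 counts in the KO libraries (log2 fold change -2.80, SE 1.39, edgeR adjusted p = 0.423). It passed the filter on low counts through WT 1 alone, the library where it was high, so its fold change is not support for a fall. Of the conventional kinesin-1 heavy chains, Kif5c was at 41.1 CPM in WT 1 and 60.3, 29 and 26.3 CPM in the KO libraries, and Kif5b at 25.9 CPM and 32, 31.3 and 27.7 CPM. The neuronal chain Kif5a had 0 counts in WT 1 and 2, 0 and 6 in the KO libraries, and the neuronal vesicle motor Kif1a 0, and 0, 2 and 7. Kif1b, a motor of mitochondria and vesicles, was at 32.1 CPM in WT 1 and 24.1 to 41.7 CPM in the KO libraries. Kif16b, a motor of early endosomes, was at 29.4 CPM and 29 to 34.3 CPM. For both the KO libraries lay on either side of WT 1. The kinesin-4 transport motors Kif21a and Kif21b were at 5.60 and 13.8 CPM in WT 1, and at 5.76 to 6.88 and 6.88 to 10.5 CPM in the KO libraries; those of Kif21b all lay below WT 1. Kif1c, Kif3c and Kif28 stayed under 5 CPM in each library, with log2 fold changes of -0.32, -0.29 and 0.57.

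Among kinesins known from cilia, Kif17 was far above the rest. Kif17 (chromosome 4, 138250435 to 138301967, plus strand), a kinesin-2 known for carrying receptor vesicles in dendrites and for its place in cilia, was at 371 CPM in WT 1 and at 320, 464 and 425 CPM in the KO libraries. WT 1 lay within the range of the KO libraries (log2 fold change 0.12, SE 0.33, edgeR adjusted p = 0.913). Kif3a, a subunit of the heterotrimeric kinesin-2 of intraflagellar transport, was at 49.9 CPM and 47.4, 61.1 and 61.2 CPM. Its partner Kif3b was lower, at 14 CPM and 13.7, 8.45 and 8.86 CPM. Per length, Kif3a stood at 38.8 TPM and Kif3b at 5.04 TPM on average, so mRNAs of subunits that pair in the motor differed in level in each library. Kif9, a kinesin-9 of motile cilia and flagella, was at 7.48 CPM in WT 1 and at 10.5, 19.5 and 23.2 CPM in the KO libraries, all above WT 1 (log2 fold change 1.25, SE 0.51, adjusted p = 0.323). Kif24, a centriole-bound kinesin-13, was at 31.4 CPM and 22.1 to 27.4 CPM, all KO libraries below WT 1. Kif27, a relative of the Hedgehog-pathway kinesin Kif7, was at 2.84 CPM and 2.68 to 4.47 CPM. Kif6, Kif7 and Kif19a had at most 4 counts in any of the 4 libraries and were not tested, as was Kif12 with 1 count in all. The atypical kinesin Kif26a was at 1.21 CPM in WT 1 and at 0.974, 1.16 and 0.224 CPM in the KO libraries, and Kif26b at 2.97 CPM and 2.19, 1.39 and 1.23 CPM, all KO libraries below WT 1 for each. The pseudogene Kifc5c-ps was at 0.920 CPM in WT 1 and 0.487 to 1.61 CPM in the KO libraries.

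Leaving out KO 1 changed the count of kinesins called. KO 1 lay farther from KO 2 and from KO 3 than these lay from each other for 21 of the 36 tested kinesins (58.3%), against 54.3% of all genes. Without KO 1, 12 kinesins passed, in a fit that called 28.1% of all genes, 15.4% higher and 12.7% lower in KO. Kif18a, Kif20a, Kif11, Kif9, Kif23, Kif22, Kif2c and Kifc1 rose and Kifc3, Kif13a, Kif14 and Kif5c fell. The 12 calls among 36 tested kinesins are near the share of all genes called in that fit. By role, 5 of 10 tested spindle motors rose, and of 4 cytokinesis motors 2 rose and 1 fell. Of 13 transport motors 0 rose and 3 fell, and of 6 cilium motors 1, Kif9, rose. With so few genes per role and so many calls over all genes, the split by role is description only. The spread in that fit came from KO 2 and KO 3 alone. The ribosomal RNA gene CT010467.1 took 0.554% and 0.565% of the counts of KO 2 and KO 3, but 1.49% of those of KO 1 and 2.47% of those of WT 1. Ribosomal protein genes took 1.69% and 1.66% in KO 2 and KO 3, against 2.88% in KO 1 and 2.63% in WT 1, and mitochondrial genes 0.214% and 0.235% against 0.394% and 0.344%. The part of these differences in the result was not tested. Without KO 2, 0 kinesins and 2.43% of all genes passed, and without KO 3, 0 kinesins and 2.89% of all genes.

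**Figure D4:**
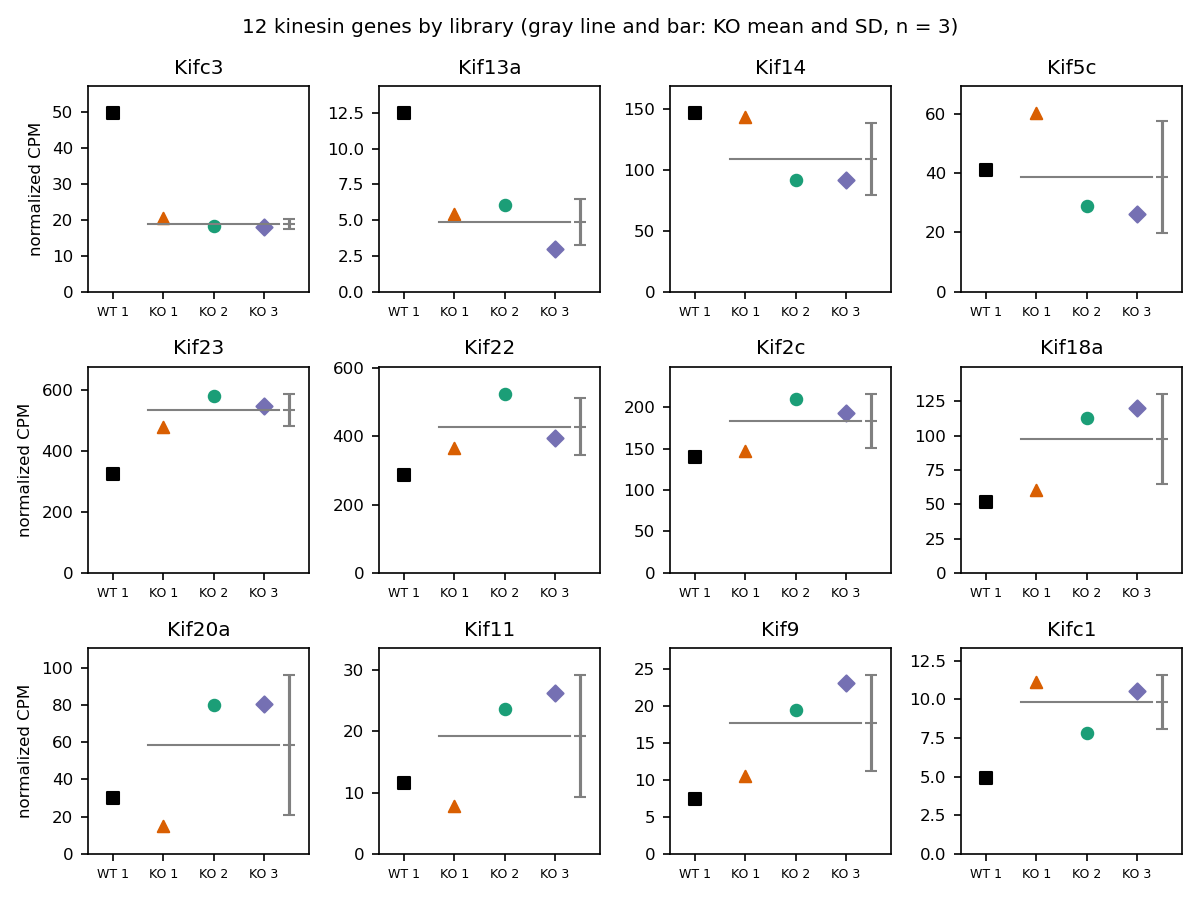
Normalized CPM (vertical axis, from 0) in WT 1, KO 1, KO 2 and KO 3 of the 12 kinesin genes that passed when KO 1 was left out; the gray line is the KO mean and the bar its SD (n = 3). Kifc3 and Kif13a have all KO libraries well below WT 1, whereas for Kif18a, Kif20a and Kif11 KO 1 lies near or below WT 1 and away from KO 2 and KO 3.

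Genes that work with kinesins were examined as lists. Of 15 tested kinesin partners 1 rose and 0 fell, where 1.32% of all genes tested rose and 0.612% fell, with a median log2 fold change of -0.24 beside 0.02 for all genes. The one that rose was Arl8a, a small GTPase that links lysosomes to kinesins, at 4.51 CPM in WT 1 and 24.1, 18.5 and 16.5 CPM in the KO libraries (log2 fold change 2.12, SE 0.45, edgeR adjusted p = 0.0435). It did not pass with library size alone, at a mean of at least 5 CPM or after thinning. Mapk8ip3, a kinesin-1 cargo adaptor, was at 19.9 CPM and 7.67 to 14.1 CPM (adjusted p = 0.361). Of 33 genes of cytoplasmic dynein and dynactin, the motor that moves against most kinesins, 1 rose and 0 fell, against the same 1.32% and 0.612% of all genes, with a median of 0.00; a single call in a list of this size is near that share. Dync1i1, a dynein intermediate chain gene, had 1 count in WT 1 and 23, 73 and 96 counts in the KO libraries, a count ratio of 74.8 (95% exact counting interval 13.3 to 2969; edgeR adjusted p = 0.0179), and did not pass with limma-voom. Dync1i1 passed the filter on low counts through the KO libraries alone, where it was high, so its call and ratio depend in part on that filter. Dync2li1, of the ciliary dynein, was at 19.6 CPM and 8.2 to 12.9 CPM (edgeR adjusted p = 0.338).

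Of 28 spindle microtubule regulators 0 passed, where 1.93% of all genes tested were called, so a count of 0 in a list of this size is near that share. The nearest were subunits of one complex with opposite signs. Haus8, of the augmin complex that branches spindle microtubules, was at 66.7 CPM in WT 1 and 139, 184 and 181 CPM in the KO libraries, all above WT 1 (edgeR adjusted p = 0.1). Haus1, of the same complex, was at 99.4 CPM in WT 1 and 54.8, 20.9 and 35.4 CPM, all below (adjusted p = 0.166). The list's median log2 fold change was 0.09, beside 0.02 for all genes.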

How the data were processed

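Full-grown oocyte RNA was made into oligo(dT)-primed Smart-seq2 libraries, per the labels' protocols, so counts depend on priming at the tail; its part in the results was not tested. The submitters' processing notes name Trim Galore 0.6.7 (read trimming), STAR 2.7.10a (alignment), featureCounts 2.0.2 (counting), DESeq2 and the build mm10. The authors deposited unnormalized gene counts in 5 library columns beside exon lengths, per the file headers. The sources used here name no annotation release or strand setting; coordinates of all 43 kinesins equalled those of GENCODE M21.

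Counts were tested with edgeR 4.0.16 (R 4.3.3; quasi-likelihood, robust=TRUE, TMM, filterByExpr, Benjamini-Hochberg over all genes tested). Errors are the log2 fold change over the root of the F statistic. DESeq2 1.42.0 and limma-voom 3.58.1 were alternatives, with the others given in the closing section. The test was tried on simulated counts of 17000 genes, 200 of them changed, all 200 with a mean of at least 5 CPM. The simulated spread followed the trend over levels, without a spread particular to each gene. Figures used matplotlib 3.10.9. One count was worth 0.0374 to 0.0831 CPM. Floors and intervals hold counting error alone: reads were amplified and are not independent molecules. No label says that replicates come from separate females, so the spread behind each p-value may be technical. No pair agreed within sampling noise (chi-square per degree of freedom 19.4 to 136).

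Kinesins were named if they were past the threshold, among the 3 lowest p-values each way, the 10 highest by TPM or the 2 highest of a role, and others were given where their subfamily was described; partners by the lowest p each way. Members, roles, lists and motifs were chosen with earlier results of these data known.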

Additional observations from a re-analysis of the deposited data

Results flagged for a closer look

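Counts at several kinesin genes appeared in WT 2, the library that entered no comparison, at 10 or more times the level of WT 1 (CPM over the library total). Kif28 was at 434 CPM in WT 2 and 0.852 CPM in WT 1, Kif13a at 231 and 12.7, Kif1a at 168 and 0, Kifc1 at 96.9 and 4.98, Kif1c at 49.7 and 3.15 and Kifc2 at 18.5 and 0.681. The genes lie on chromosomes 1, 11, 13, 15 and 17, where WT 2 did not follow the gene models, and whether they stem from these genes was not tested.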

How the results depend on the processing

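No paired analysis was possible for the reported comparison because WT 1 shares a replicate number with only 1 KO library. With WT 2 added, the fit without and with a replicate block called 0 genes in all and 0 kinesins, kinesin partners and dynein or dynactin genes, and the kinesin median log2 fold change was 0.40 (0.68 over all genes) and 1.21 with the block (1.97). Deviations of same-numbered libraries from their group means correlated at -0.02 and -0.05. The WT mean held WT 1 and WT 2 alone, so their deviations mirror each other and carry the counts of WT 2. These values therefore cannot show or exclude a pairing. With WT 2 and then with WT 2 and the replicate block, the log2 fold change changed sign to 0.35 and 1.92 for Kif21b, 0.22 and 0.58 for Kif14, -7.15 and -3.45 for Kif28, 0.90 and 4.38 for Kif5c, 0.50 and 1.99 for Kif3b, 0.47 and 1.22 for Kif24, 0.44 and 0.59 for Kif1b, -0.12 and -0.10 for Kif9, -1.67 and -1.21 for Kif3a, 0.16 and 1.52 for Kif26a, -1.40 and -1.02 for Kif27, 0.80 and 4.63 for Kif2a, -2.12 and -1.09 for Kifc1, and -1.70 and -1.08 for Kif5b, and with the block to 3.06 for Kifc3. Elsewhere signs changed for Kifc5c-ps without a filter (0.013) and after thinning (0.14), and after thinning for Kif1c (0.21) and Kifc5b (-0.13). Leaving out 1 KO library gave 425 to 4923 calls in all, 0 to 12 kinesins, 1 to 5 partners, 1 to 11 dynein or dynactin genes and 0 to 9 spindle regulators, the highest always without KO 1, and log2 fold changes of -0.57 to 0.11 for Kif5c, -0.29 to 0.11 for Kif1b, -1.12 to 0.025 for Kif1c, -0.71 to 0.018 for Kif3c, -0.13 to 0.24 for Kif13b, -0.17 to 0.58 for Kifc5b and -0.76 to 0.27 for Kifc5c-ps. The count over all genes, 344, was 672 with DESeq2, 868 without a filter, 126 at a mean of at least 5 CPM, 131 at a threshold of 0.01 and 545 at 0.1. Kinesins called were 1 with DESeq2, without a filter and at a threshold of 0.1, each time Kifc3. Partners called fell to 0 with library size alone, at a mean of 5 CPM, after thinning and at 0.01. Dynein or dynactin calls were 0 with limma-voom, at a mean of 5 CPM and at 0.01, and 2 without a filter. Spindle regulators called were 1 with DESeq2 and 2 without a filter. With the longest transcript as length, 17 of 36 levels moved by more than the spread between libraries. The cause was not tested.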
